A study of Saccharomyces cerevisiae with 42 samples.

Results

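The comparison set RNA libraries of growing budding yeast labelled 4 h against those labelled 0 h, across every gene, to see which functions rose and fell as a culture aged. It held 6 libraries at 4 h and 24 at 0 h, 30 of the 42 libraries in the series. Of the 7127 genes in the count tables, 6003 had a mean of at least 10 counts over the 30 libraries and were tested, and 197 had 0 counts in all 30. Every library came from wild-type cells of the haploid Saccharomyces cerevisiae strain BY4742, grown at 30 °C in YPD, a rich medium with glucose. The cells of the 0 h libraries had been diluted from a preculture and grown for 2 h, and those of the 4 h libraries had grown for 4 h more. By the labels the groups differ only in time in culture, and all samples are of 1 strain in 1 medium. Replicates are labelled as biological, with no word on separate precultures, so p-values measure the spread between these samples. The libraries at 2 and 6 h were used only to place the 4 h values in the course.

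The strain was checked against its markers. LEU2, one of the genes deleted in the strain, had 0 counts in all 30 libraries, and LYS2 and URA3 stayed below 1 scaled count in each (counts scaled to the mean library size of 13900104). HIS3, of which the strain keeps a part, ranged from 614 to 2311 (median 932) at 0 h. The genotype written out in the study's methods is of mating type a with MET15 deleted. MET17, the current name of that gene, ranged from 2164 to 5273 (median 2958) at 0 h and from 2836 to 3359 (median 3125) at 4 h. MF(ALPHA)1, which encodes the pheromone of alpha cells, ranged from 14995 to 24403 (median 17773) at 0 h, whereas MFA1, which encodes the pheromone of a cells, ranged from 0.965 to 31 (median 11.9). The counts thus go against the written mating type and the written methionine marker in every library, and the strain is called by its labelled name here.

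Library totals ranged from 5382002 to 28221337 counts at 0 h and from 6404650 to 22601624 at 4 h and did not differ beyond their spread (two-sided exact permutation test over 593775 splits, p = 0.474). Libraries differed in how counts scaled with gene length. The slope of log2 depth-scaled counts on log2 length was flat in 7 libraries at 0 h and in 0 at 4 h, and the flat or steep set was a term of the test. Among steep libraries alone the 4 h slope was still higher by 0.0717 (exact permutation test, p = 0.00476). Genes called higher had a median exon length of 1529 bases and genes called lower one of 1055, against 1179 for all tested genes, while genes that at least doubled had one of 1182 and genes that fell by at least 2-fold one of 360. In 1 more fit, of steep libraries only and with their slope as a covariate, 855 genes were called higher and 729 lower, and the medians were 1242 and 1311 bases. Counts of that fit are given below as "with the slope held". The alignment names in 18 of the 24 count files at 0 h carry 35C, 10C or Na200 in place of 30C, while their labels do not. What these marks mean for samples at 0 h is not stated, and every library was used as labelled. Those names repeat the numbers 1 to 6 under 30C and under each other mark at 0 h, and carry 1 to 6 at 4 h. Whether a shared number marks a shared culture is not stated. The study's methods give 24 biological replicates at 0 h, while its results give 6 repeats per time point. Its growth curves rest on 6 independent experiments. The test took all 24 libraries at 0 h as independent, and its p-values would be too low if some shared a culture.

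Yeast given glucose ferments it to ethanol and represses the genes for respiration, for other carbon sources and for reserves. As glucose falls, low-affinity hexose transporters give way to high-affinity ones, the kinase Snf1 lifts repression, and lower activity of protein kinase A and TORC1 lets the stress factors Msn2 and Msn4 act while the factors that drive ribosome production lose activity. Glycogen and trehalose are the reserve carbohydrates laid down as growth slows. The gene lists below follow these and other functions.

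Of the genes tested, 1224 (20.4%) were called higher at 4 h and 1116 (18.6%) lower, where a call is a Benjamini-Hochberg adjusted p below 0.05 from the quasi-likelihood test of edgeR. Changes are given as log2 differences, 4 h minus 0 h, with their standard errors, adjusted p-values are from that test, and levels are scaled counts. The median log2 change of all tested genes was 0.01. Most changes were small, with a median of 0.41 among the higher and -0.35 among the lower genes, and 143 genes (2.38%) at least doubled while 53 (0.883%) fell by at least 2-fold. All 6 libraries at 4 h lay above every library at 0 h for 118 genes (1.97%) and below every one for 32 (0.533%). Ribosomal protein genes (138 tested) and other genes with introns (176 tested) made up 32 of the higher and 65 of the lower genes. Most calls lay elsewhere, as did most of the 6003 genes tested. These are bulk RNA samples, in which fewer cells of a kind and less RNA per cell cannot be told apart. Scaling by library size alone, in place of TMM normalization, gave 1426 higher and 753 lower genes, moved the median change to 0.06, and took the share of calls that were higher from 52.3% to 65.4%. Against only the 6 libraries at 0 h whose alignment names carry 30 °C, 488 genes were higher and 356 lower. The largest rises were in storage carbohydrate, stress and hexose use genes, and the lists with the largest share of falls were the proteasome, ribosome biogenesis and ergosterol synthesis.

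**Figure D1:**
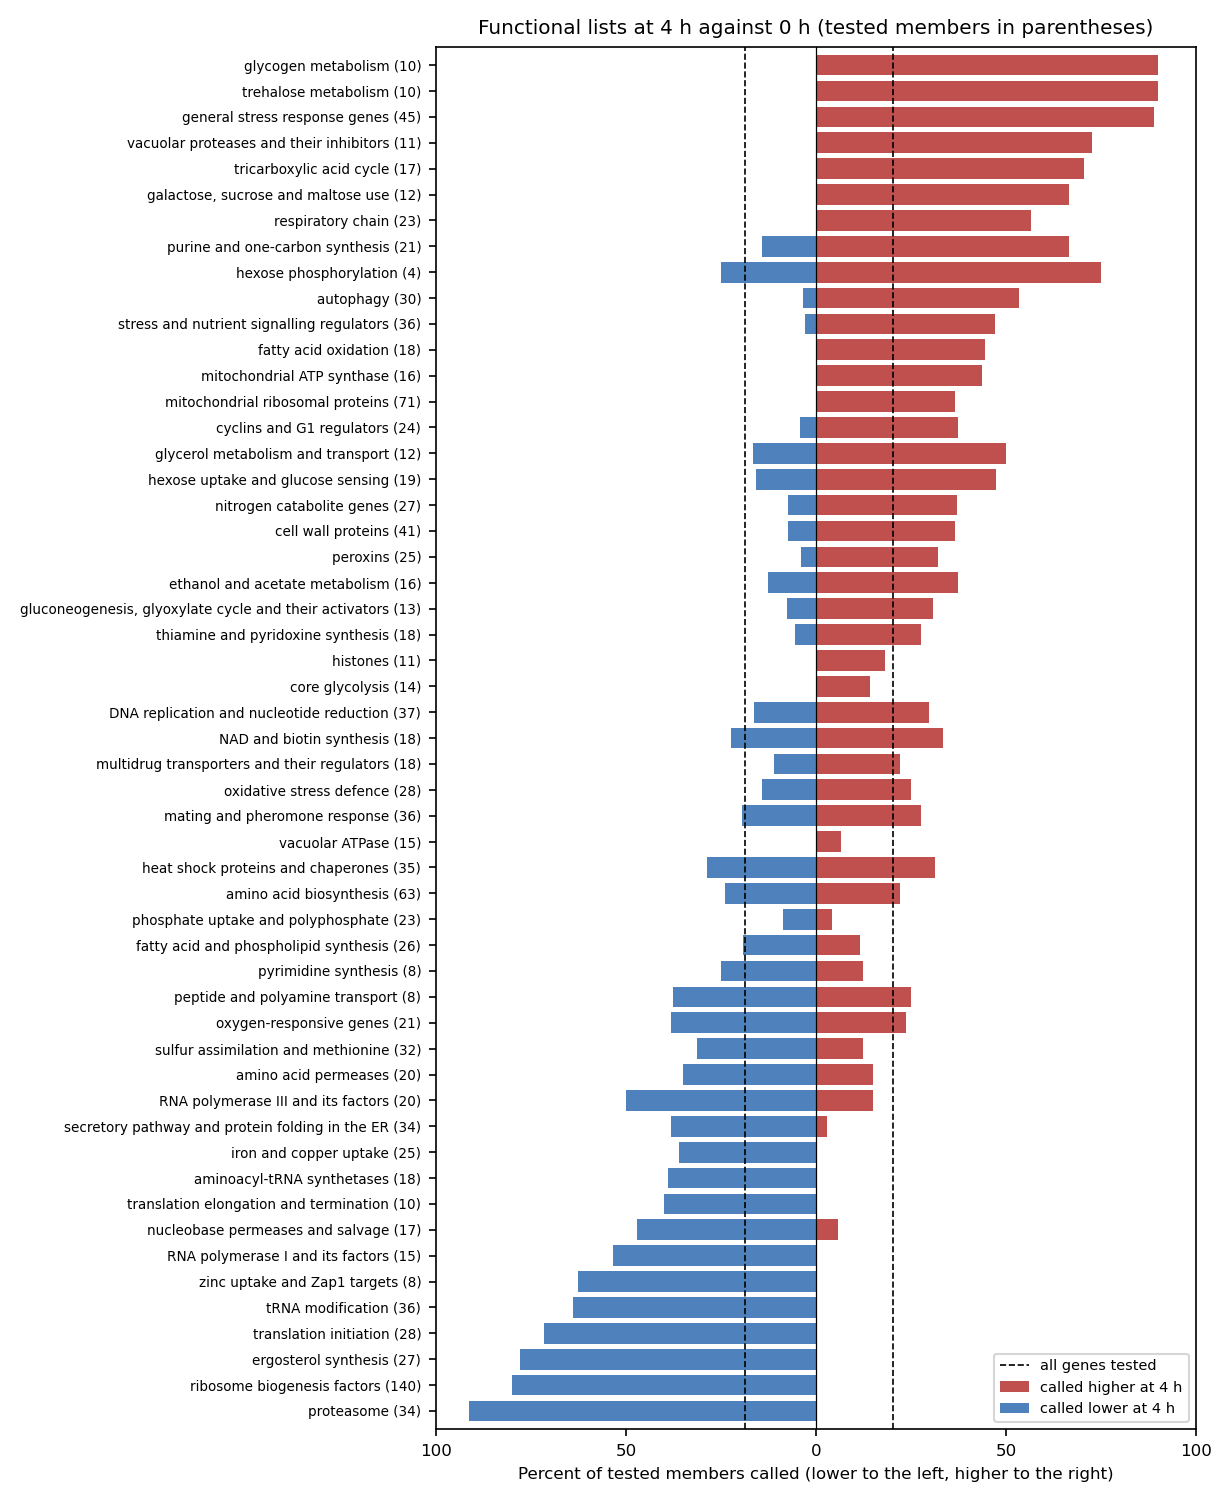
Share of the tested members of each functional list called higher (red, to the right) or lower (blue, to the left) at 4 h, with the number of tested members in parentheses. Dashed lines mark the shares among all tested genes, 20.4% higher and 18.6% lower, and the bars of glycogen, trehalose and stress genes to the right and of the proteasome and ribosome biogenesis factors to the left extend far beyond them.

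Glycogen genes gave the largest change of any list. Of its 10 members, 9 were higher and 0 lower, with a median log2 change of 2.22, and 8 remained called with the slope held. GLC3 (YEL011W, chromosome V, 133120 to 135234, in the R64 build as are all positions below), the glycogen branching enzyme, ranged from 51.5 to 472 (median 109.9) scaled counts at 0 h and stood at 4929, 732, 211, 4459, 2116 and 844 in 4 h replicates 1 to 6. Replicates 1 and 4 were the highest and replicate 3 lay within the 0 h range. Its log2 change was 3.66 (standard error 0.42, adjusted p = 8.26e-08). GSY1 (YFR015C, chromosome VI, 174265 to 176391), a glycogen synthase, went from 125 to 3129 (median 394) at 0 h to 15496, 2125, 263, 13521, 6400.2 and 2032, so that replicate 3 was below the 0 h median and 3 libraries were above every 0 h library. The change was 2.95 (standard error 0.58, adjusted p = 0.000178) for GSY1 and 2.71 (standard error 0.30, adjusted p = 6.8e-08) for the second synthase gene GSY2 (YLR258W). GPH1 (YPR160W, chromosome XVI, 861306 to 864014), the phosphorylase that breaks glycogen down, ranged from 71.3 to 534 (median 160.96) at 0 h and from 839 to 4862 (median 1397) at 4 h, with all 6 libraries above every 0 h library. Its log2 change was 3.35 (standard error 0.29, adjusted p = 5.38e-10). GAC1 (YOR178C, chromosome XV, 667860 to 670241), the subunit that directs the phosphatase Glc7 to glycogen synthase, ranged from 19.7 to 264 (median 87.7) and then from 405 to 1843 (median 717), again without overlap, and changed by 3.09 (standard error 0.24, adjusted p = 6.68e-11). Genes for synthesis and for breakdown of glycogen were thus higher together, and PIG1, another Glc7 subunit, was the member not called (-0.02).

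Trehalose genes followed the same libraries. All but 1 of 10 members were higher (9; 8 with the slope held), with a median of 0.69, and the exception was PGM1 (0.04). TSL1 (YML100W, chromosome XIII, 70624 to 73920), a regulatory subunit of the synthase complex, ranged from 143 to 2128 (median 351) at 0 h and stood at 13259.5, 1154, 1016, 10335, 3581 and 1426 in replicates 1 to 6 at 4 h. Replicates 1, 4 and 5 exceeded every 0 h library, and the other replicates lay inside the 0 h range. The change was 3.11 (standard error 0.43, adjusted p = 1.53e-06) for TSL1, 2.39 (standard error 0.27) for phosphoglucomutase PGM2, 1.5 (standard error 0.28) for the phosphatase subunit TPS2 and 1.06 (standard error 0.25) for the synthase subunit TPS1. Trehalases rose less, NTH1 by 0.51 and ATH1 by 0.57. With only the 6 libraries at 0 h whose alignment names carry 30 °C, 3 trehalose and 7 glycogen members were called, and with the numbers in those names as a block 9 and 8.

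**Figure D2:**
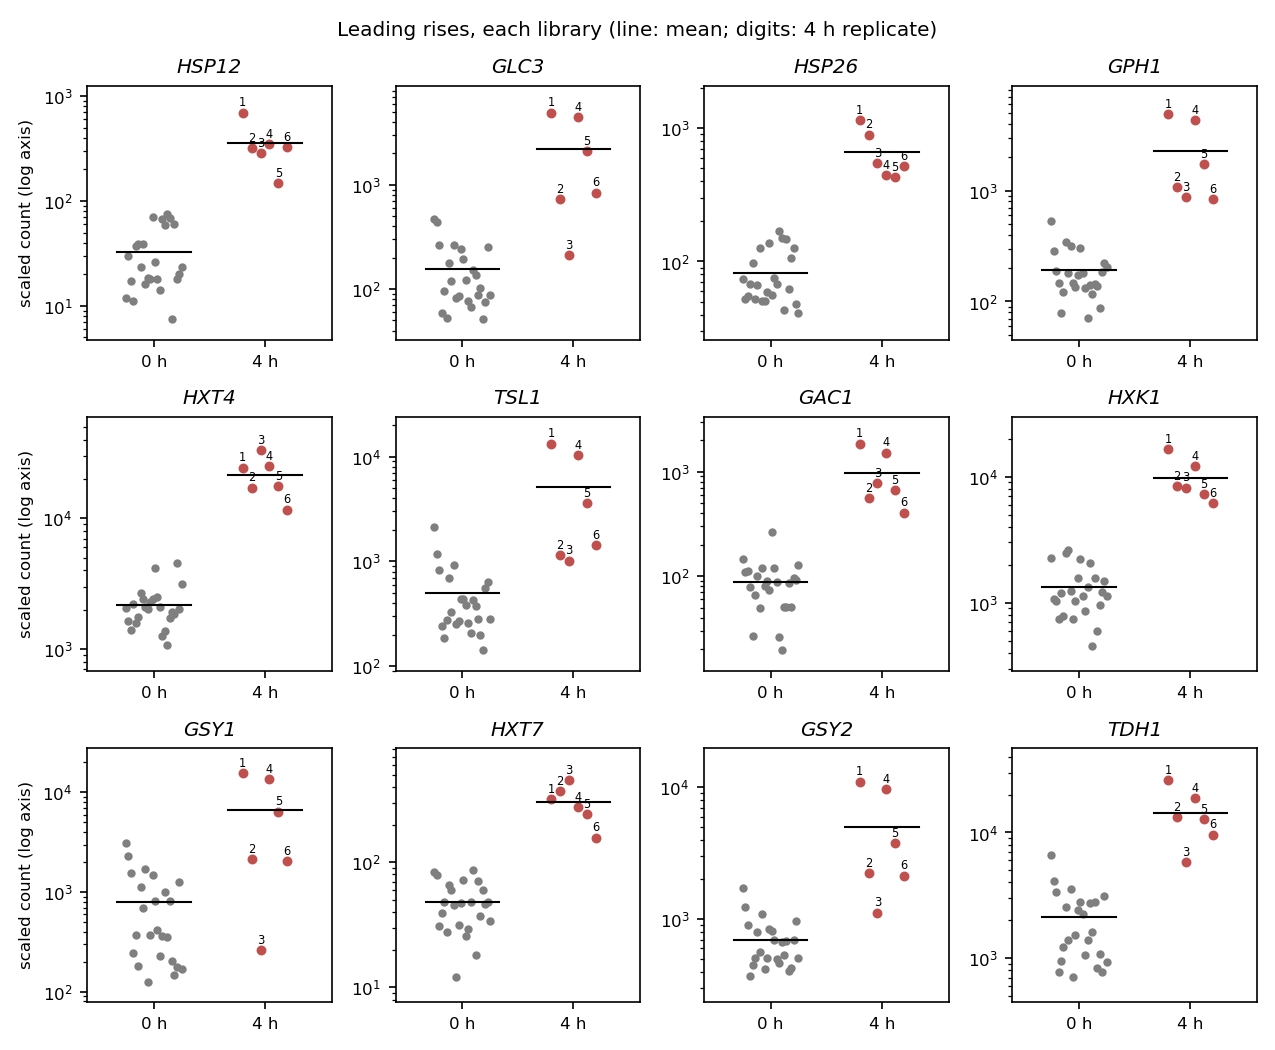
Scaled counts (log axis) of the 12 largest rises in each library at 0 h (grey, 24 libraries) and 4 h (red, 6 libraries numbered by replicate), with a line at each mean. They were the largest among called protein-coding genes with a symbol, at least 75 mean scaled counts, no intron and no ribosomal protein. HSP12, HSP26, GPH1, HXT4, GAC1, HXK1 and HXT7 show no overlap between the groups, while TSL1 and GSY1 have 3 libraries at 4 h inside the 0 h range.

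Members named beyond the 4 largest changes of a list, where they were called, and genes of no list were chosen after their values were seen. Hexose transporter genes moved in opposite directions, and of 12 growth phase markers that include them 8 were higher and 2 lower. HXT4 (YHR092C, chromosome VIII, 287081 to 288811), a transporter of high affinity, ranged from 1080.0 to 4577 (median 2058) scaled counts at 0 h and stood at 24509, 17191, 33160.2, 25155, 17653 and 11697 at 4 h. No library overlapped, and replicate 3 was the highest, unlike in the glycogen genes. Its change was 3.15 (standard error 0.19, adjusted p = 7.03e-14), and that of HXT7 (YDR342C, chromosome IV, 1154216 to 1155928), a transporter of the same kind whose near-identical neighbour HXT6 may take or lose reads, was 2.76 (standard error 0.23, adjusted p = 2.85e-10) from a level of 12.1 to 86.7 (median 46.8) at 0 h. HXT6 itself rose by 0.78 (standard error 0.27), with all 6 libraries inside the 0 h range. HXT1, the transporter of low affinity used at high glucose, ranged from 10713 to 30925 (median 21186) at 0 h and stood at 6873, 10863, 20026, 12762, 9710.2 and 13109 at 4 h, a change of -0.92 (standard error 0.17, adjusted p = 0.000121). HXT2 stood at 4392, 8684, 40715, 8579, 5381 and 10269.8, with replicate 3 above every 0 h library and 4 replicates below every one, and its fall of -0.76 (standard error 0.30) was close to the threshold (adjusted p = 0.0442). HXT3, the most abundant of them in counts, was not called (0.20), nor was the invertase gene SUC2 (0.07). Among regulators, MTH1, a co-repressor of hexose transporter genes, rose by 1.93 (standard error 0.22) and the sensor gene SNF3 by 0.59 (standard error 0.12), while the sensor gene RGT2 fell by 0.30 on the log2 scale. Over the list, 9 of 19 tested members were higher and 3 lower, and 5 of the 24 had too few counts.

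The first step of glucose use showed the same exchange between isoenzymes. HXK1 (YFR053C, chromosome VI, 253592 to 255049), a hexokinase repressed by glucose, ranged from 456 to 2609 (median 1161) at 0 h and from 6173 to 16495 (median 8314) at 4 h with no overlap, a change of 2.96 (standard error 0.24, adjusted p = 2.03e-10). HXK2 (YGL253W), the hexokinase of growth on glucose, fell from 37907 ± 4843 (SD, n = 24) to 31386 ± 4164 (SD, n = 6), a change of -0.39 (standard error 0.09, adjusted p = 0.00153). Glucokinase GLK1 rose by 1.63 (standard error 0.42) and its paralog EMI2 by 1.49 (standard error 0.27), with 3 of 6 libraries above every 0 h library for each. Few core glycolysis genes were called, with 2 of 14 members higher and 0 lower. Those members were TDH1 (YJL052W, chromosome X, 338271 to 339269), a minor glyceraldehyde-3-phosphate dehydrogenase, which changed by 2.65 (standard error 0.35, adjusted p = 1.07e-06), and PYK2, a minor pyruvate kinase, with 0.86 (standard error 0.19). TDH3 (0.03), PGK1 (0.02) and ENO2 (-0.29) were not called. Of 16 genes of ethanol and acetate metabolism, 6 were higher (3 without 4 h replicate 1), led by the mitochondrial aldehyde dehydrogenase ALD4 (0.95, standard error 0.19), and 2 lower, PDC1 (-0.33), the main pyruvate decarboxylase, and ADH4 (-0.22). FBP1 (0.56) and PCK1 (0.26), the defining enzymes of gluconeogenesis, were not called, while their activator CAT8 rose by 1.03 (standard error 0.17).

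General stress response genes, a list of known Msn2 and Msn4 targets and their fellows, included 40 higher and 0 lower genes of 45, with a median of 1.25, and 31 were higher with the slope held. It also holds GPH1, GAC1, GSY2, GDB1, TSL1, PGM2, TPS1, TPS2 and NTH1 of the lists above. Its summed share of counts ranged from 0.210% to 0.671% (median 0.334%) at 0 h and stood at 1.73%, 0.599%, 0.415%, 1.30%, 0.729% and 0.604% in 4 h replicates 1 to 6. Replicates 1, 4 and 5 were thus above every 0 h library. HSP12 (YFL014W, chromosome VI, 107256 to 107585), a small membrane-protecting protein, had the largest rise among the named genes. It ranged from 7.47 to 74.4 (median 23.4) at 0 h, stood at 695, 319.8, 286, 347, 148 and 329 at 4 h and changed by 3.92 (standard error 0.27, adjusted p = 1.8e-12). HSP26 (YBR072W, chromosome II, 382030 to 382674), a small chaperone, went from 41.1 to 168 (median 67.3) to 427 to 1144 (median 529) with no overlap, a change of 3.36 (standard error 0.17, adjusted p = 4.39e-16). The transcription factor gene MSN4 was itself higher in all 6 libraries than in any at 0 h (1.26, standard error 0.11), as was the repressor gene XBP1 (2.64, standard error 0.26), whereas MSN2 was not called (0.08). SOD2 (0.16) and HSP42 (1.19) were among the 5 members not called.

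The letters AGGGG are the core of the stress response element bound by Msn2 and Msn4. They are shown because they were more frequent at genes that rose at least 2-fold than at all promoters. On either strand, in the 250 bases before and 50 after the coding start, they occurred at 51.4% of the genes that rose at least 2-fold, 33.7% of all higher genes, 13.2% of lower genes and 21.6% of all promoters of that length. Among the stress list the share was 64.4%, and 6 of the 12 largest rises held a match in the 250 bases. For 4 of them, 30 bases with the match in capitals (CCCCT is the same letters on the other strand) are, 5′ to 3′ in the direction of transcription and read from the R64 genome of RefSeq:
TSL1: aggagaAGGGGgtagaaccaAGGGGctagc
HSP12: actagatctacagCCCCTggaaaatcgttt
GLC3: taagctttgtccaAGGGGctgttgcaacgg
TDH1: catagtctgaagaAGGGGgggaggagcatg
They lie at chrXIII:70439-70468, plus strand (TSL1), chrVI:107011-107040, plus strand (HSP12), chrV:132894-132923, plus strand (GLC3) and chrX:338029-338058, plus strand (TDH1), all before the coding start. A match is a description and not a shown binding site. HSP26, GPH1, HXT4, GAC1, HXK1 and GSY1, also among the 12 largest rises, held none in the 250 bases.

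Chaperones were called in both directions. Of 35 genes, 11 were higher (7 with the slope held) and 10 lower. Beside HSP26, the stress-induced SSA4 rose by 1.38 (standard error 0.18), HSP30 by 1.58 (standard error 0.58) and the mitochondrial disaggregase HSP78 by 1.34 (standard error 0.35). The cytosolic disaggregase HSP104 rose by 1.16 (standard error 0.42) at an adjusted p of 0.0288 and stood at 36699, 6744, 2637, 26173, 12112 and 10666, with replicates 1 and 4 above every 0 h library. Among the lower members, YDJ1, the main cytosolic J protein, ranged from 7682 to 10853 (median 9169) at 0 h and from 5020.1 to 7674 (median 5414) at 4 h with no overlap (-0.64, standard error 0.08, adjusted p = 6.1e-07), and SSA2 (-0.63, standard error 0.10), HSC82 (-0.49, standard error 0.08) and SSE1 (-0.42, standard error 0.10) were lower too. Genes for the TRiC chaperonin, which folds actin and tubulin, were examined after the values had been seen, and all 8 were lower, between -0.24 and -0.42, with CCT4 below every 0 h library in 6 of 6 (-0.42, standard error 0.06, adjusted p = 4.92e-06). Of 28 oxidative defence genes, 7 were higher and 4 lower, 3 and 2 without 4 h replicate 1 and 2 and 2 without the set term, led by the cytosolic catalase CTT1 (0.99, standard error 0.19).

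Mitochondrial energy genes that were called were mostly higher, by modest amounts. In the tricarboxylic acid cycle, 12 of 17 members were higher and 0 lower, with a median of 0.35; 8 were higher with the slope held and 7 without the set term. SDH1, the flavoprotein of succinate dehydrogenase, ranged from 589 to 1188 (median 845) at 0 h and from 1179 to 2422 (median 1592) at 4 h (0.86, standard error 0.13, adjusted p = 6.29e-06), and citrate synthase CIT1 rose by 0.79 (standard error 0.17) and aconitase ACO1 by 0.68 (standard error 0.15). The peroxisomal citrate synthase gene CIT2, counted with the glyoxylate cycle, went down instead (-0.77, standard error 0.19). In the respiratory chain 13 of 23 members were higher and 0 lower (15 with the slope held). CYT1 (YOR065W), cytochrome c1, stood at 1374, 1010.3, 933, 1036, 907 and 977 at 4 h against 356 to 872 (median 537) at 0 h, above every 0 h library in all 6, and changed by 1.03 (standard error 0.12, adjusted p = 9.67e-08). CYC7, the minor cytochrome c, ranged from 2.43 to 62.9 (median 23.8) at 0 h and from 36.8 to 317 (median 72.3) at 4 h (2.36, standard error 0.37), and the NADH dehydrogenase genes NDE2 (2.10, standard error 0.27) and NDI1 (1.14, standard error 0.16) and the subunit gene COX5B (1.42, standard error 0.21) rose as well. CYC1, the major cytochrome c, was not called (0.17). For the ATP synthase 7 of 16 were higher, of which INH1 (1.69, standard error 0.18) and STF1 (1.5, standard error 0.17), inhibitors of the enzyme, and STF2 (1.46, standard error 0.34) moved most while the catalytic subunit gene ATP2 changed by 0.34.

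Of 71 mitochondrial ribosomal protein genes, 26 were higher, 0 were lower and 45 were not called, with a median of 0.15, and the count went from 9 without the set term, a share below that of all genes, to 38 with the slope held. HAP4, the regulatory subunit of the Hap complex that activates respiratory genes, was chosen after its values were seen. It ranged from 536 to 2843 (median 1696) at 0 h and stood at 13186, 6303, 5037, 12088, 6627 and 5329 at 4 h, with no overlap, and changed by 2.16 (standard error 0.25, adjusted p = 1.02e-07). HAP2 also rose, by 0.33 (standard error 0.12), while HAP1 (0.15), HAP3 (0.01) and HAP5 (0.33) were not called. CCAAT, the letters bound by that complex, occurred at 73.9% of respiratory chain and 87.5% of ATP synthase promoters, at 45.0% of those of all higher genes and at 43.3% of all promoters. CYC7 and NDE2, with the largest rises of the respiratory chain list, held no match in the 250 bases before the coding start. MPC3, the mitochondrial pyruvate carrier subunit of respiratory growth, rose by 2.04 (standard error 0.30) as MPC2, the subunit of fermentative growth, fell (-0.18). Both were likewise named after their values were seen.

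In lists for recycling and fat use, members that were called were nearly all higher. Of 30 autophagy genes, 16 were higher and 1 lower, with ATG39 (YLR312C), a receptor for autophagy of the nucleus, ranging from 14.0 to 75.2 (median 30.8) at 0 h and from 89.0 to 310.4 (median 140.2) at 4 h (2.24, standard error 0.23, adjusted p = 1.91e-08). ATG19 and ATG34, receptors of the vacuole targeting pathway, rose by 0.71 and 0.71, and the ubiquitin-like ATG8 was not called (0.03). Vacuolar proteases and their inhibitors had 8 of 11 higher and 0 lower (4 higher without the set term), among them aminopeptidase APE1 (1.34, standard error 0.17) and the inhibitors PAI3 (1.30, standard error 0.22) and PBI2 (1.07, standard error 0.15). Of 15 subunits of the vacuolar ATPase, 1 was higher and 0 lower. Fatty acid oxidation had 8 of 18 tested genes higher (5 with the slope held) and 0 lower, with acyl-CoA oxidase POX1 at 0.84 (standard error 0.24) from a low level and the synthetases FAA1 (0.70, standard error 0.13) and FAA2 (0.59, standard error 0.09), but FOX2 (-0.01) and POT1 (too few counts) gave no call. Peroxins were 8 of 25 higher and 1 lower, a count that fell to 3 without 4 h replicate 1 and to 2 with the slope held.

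Glycerol metabolism was split between paralogs. GPD1 and GPP2, the paralogs induced by osmotic stress, rose by 0.95 (standard error 0.23) and 1.31 (standard error 0.15), and STL1, the glycerol importer, by 2.03 (standard error 0.36) from 0.00 to 31 (median 6.90) scaled counts. GPD2, the paralog of oxygen-poor growth, ranged from 5271 to 8626 (median 6390.0) at 0 h and from 3857 to 4541 (median 4052) at 4 h without overlap and changed by -0.71 (standard error 0.09, adjusted p = 6.94e-07), and GPP1 by -0.63 (standard error 0.09, adjusted p = 6.08e-06). Genes for galactose, sucrose and maltose use were 8 of 12 higher and 0 lower, but 4 without 4 h replicate 3 and 2 with the slope held. The maltose permease MAL31 (1.34, standard error 0.17) and MAL11 (0.91, standard error 0.15) led them, and GAL1 changed by 0.37.

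Signalling genes that answer stress and nutrients were 17 of 36 higher (11 with the slope held) and 1 lower. XBP1 and MSN4 are given above, and the transcription factor USV1 (2.08, standard error 0.24) was likewise among the 4 largest. TOR1 (0.38) and the adenylate cyclase gene CYR1 (0.62) were called higher, whereas SNF1 (-0.06), SCH9 (-0.14) and SFP1 (0.13) were not called.

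**Figure D3:**
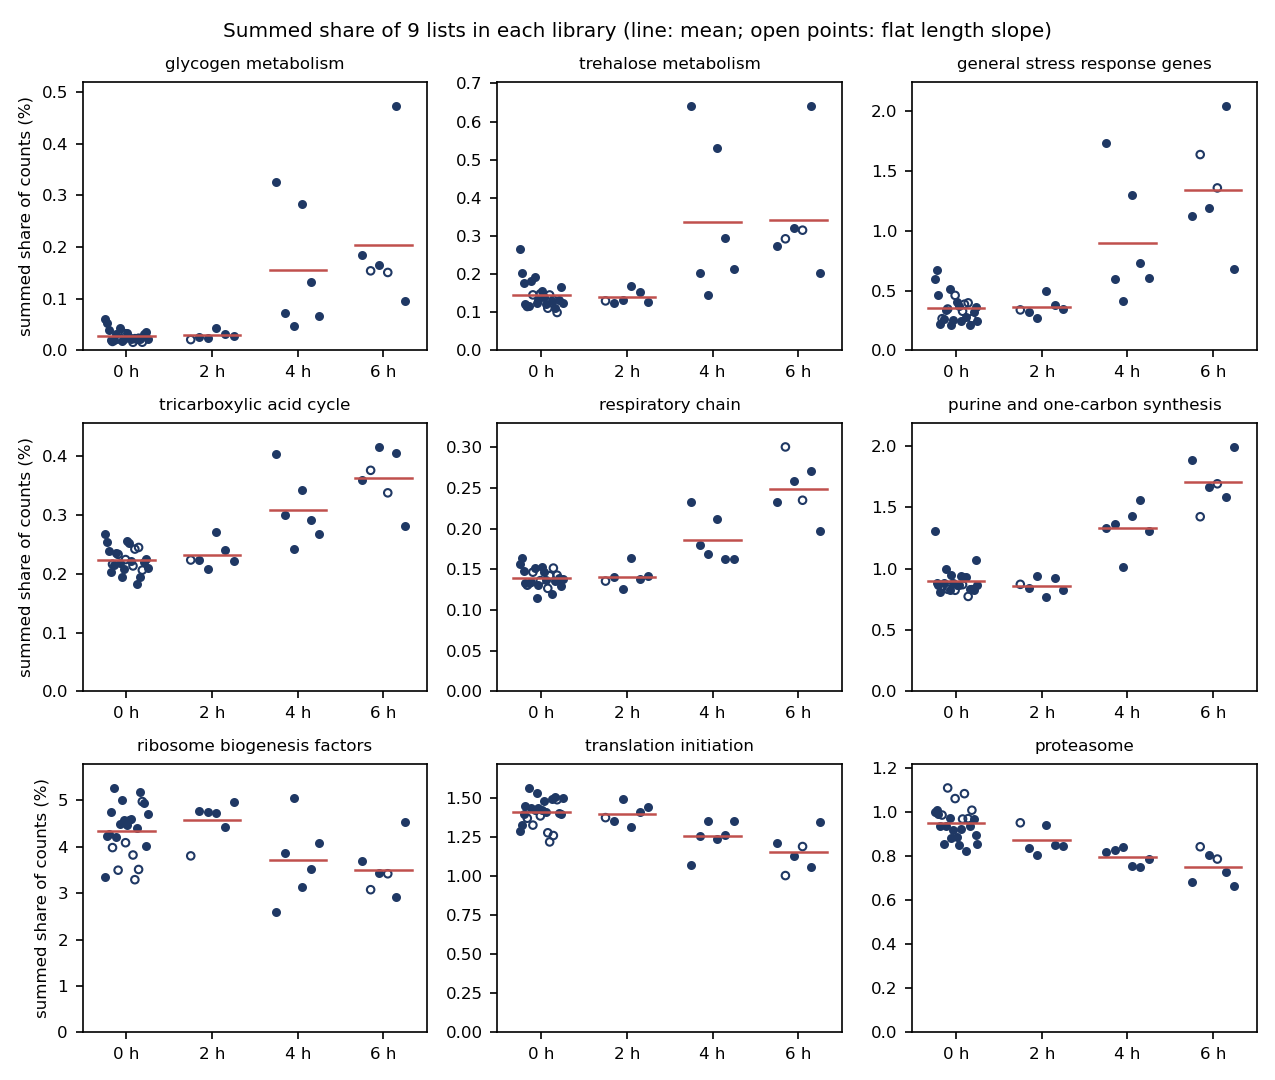
Summed share of all counts (percent, linear axis from 0) taken by 9 lists in each library at 0, 2, 4 and 6 h, with lines at the means and open points for libraries with a flat length slope. Glycogen, trehalose and stress genes spread widely at 4 h, purine genes have 4 of 6 libraries at 4 h above every library at 0 h, and the proteasome has 4 of 6 libraries at 4 h below every library at 0 h.

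Ribosome biogenesis factors, the proteins that process and assemble pre-ribosomes in the nucleolus, gave the largest group of falls. Among 140 members, 112 were called lower and 0 higher, and the median was -0.40. The count was 97 without the set term, 73 with the slope held, 76 without 4 h replicate 1 and 33 against the 6 libraries at 0 h named 30 °C (82 with the numbers in those names as a block). Together they took 3.29% to 5.27% (median 4.44%) of counts at 0 h and 2.6%, 3.86%, 5.06%, 3.13%, 3.52% and 4.08% in 4 h replicates 1 to 6. Replicates 1 and 4 were below every 0 h library, and replicate 3 was above the 0 h median. IMP3 (YHR148W, chromosome VIII, 393534 to 394085), a subunit of the processome of the small subunit, ranged from 637 to 1495 (median 1046) at 0 h and stood at 446, 829, 1126, 434, 591 and 757 at 4 h (-0.63, standard error 0.14, adjusted p = 0.000915). NOP6 (-0.65, standard error 0.12, adjusted p = 6.21e-05), UTP23 (-0.60, standard error 0.10, adjusted p = 2.98e-05) and NOP16 (-0.60, standard error 0.12, adjusted p = 0.000278) were the other largest falls. The falls of the named factors were thus each under 2-fold, and the list stood out by its count, beside 18.6% lower among all genes.

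Letters known to mark these promoters were frequent in the list and are shown for 3 of the named genes. GATGAG, the PAC element, occurred at 88.6% of the biogenesis promoters, 33.6% of those of all lower genes, 13.0% of those of higher genes and 20.4% of all promoters. AAAAATTT, the RRPE element bound by Stb3, occurred at 82.9%, 32.5%, 6.88% and 14.2% of the same groups. It also occurred at 67.9% of translation initiation and 83.3% of aminoacyl-tRNA synthetase promoters. In 30 bases before each coding start, with matches on either strand in capitals:
IMP3: aaAAAAATTTcactgatataagCTCATCgc
NOP6: ttcttcttaatcGATGAGcttaaaaggttt
UTP23: tcttcgggaagAAAAATTTtcaagatgtca
The stretch of IMP3 (chrVIII:393430-393459, plus strand) holds both elements, that of NOP6 (chrIV:78034-78063, minus strand) GATGAG and that of UTP23 (chrXV:333470-333499, plus strand) AAAAATTT. They end 75, 68 and 93 bases before the coding start.

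Other lists for making ribosomes and proteins had more members lower than higher, with shares that differed widely. RNA polymerase I, which transcribes ribosomal RNA, had 8 of 15 genes lower (5 without the set term and 4 with the slope held) and 0 higher, with RPA14 below every 0 h library in 6 of 6 (-0.56, standard error 0.09, adjusted p = 2.92e-05) and the largest subunits RPA190 (-0.03) and RPA135 (-0.12) not called. RNA polymerase III had 10 of 20 lower, led by the subunits RPC53 (-0.59, standard error 0.10), RPC37 (-0.54, standard error 0.10) and RPC82 (-0.51, standard error 0.09), and 3 higher, all subunits of its factor TFIIIC, with TFC3 at 0.63 (standard error 0.09). Translation initiation factors were 20 of 28 lower and 0 higher, with a median of -0.29. SUI1, the start codon factor eIF1, ranged from 4643 to 7459 (median 5652) at 0 h and from 3579.5 to 5137 (median 4316) at 4 h (-0.43, standard error 0.07, adjusted p = 8.96e-06), and TIF35, a subunit of eIF3, lay below every 0 h library in 6 of 6 (-0.41, standard error 0.06, adjusted p = 8.15e-06). tRNA modification had 23 of 36 lower and 0 higher, and elongation and termination 4 of 10, with TEF4 (-0.51, standard error 0.08) and the eIF5A gene HYP2 (-0.45, standard error 0.10). Aminoacyl-tRNA synthetases were 7 of 18 lower, 4 without 4 h replicate 1 and 4 with the slope held. Small nucleolar RNAs, which carry no polyA tail when mature, were 16 of 68 lower, near the share of all genes. The count was 10 without 4 h replicate 1, 8 without the set term, 9 with the slope held and 46 without 4 h replicate 3, whose snoRNA share of 1.22% was above every 0 h library. Cytosolic ribosomal protein genes were 39 of 138 lower and 1 higher, with 61 lower without the set term, 13 without 4 h replicate 1 and 5 with the slope held. Of 176 tested genes with introns other than these, 31 were higher and 26 lower, shares near or below those of all genes, and the lower count was 17 without 4 h replicate 1 and 10 with the slope held.

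Proteasome genes had the largest share of members called in 1 direction, 31 of 34 lower and 0 higher. The falls were small, with a median of -0.28, and 22 remained lower with the slope held and 29 without 4 h replicate 1. The list took 0.824% to 1.11% (median 0.953%) of counts at 0 h and 0.817%, 0.827%, 0.840%, 0.754%, 0.749% and 0.785% at 4 h, and replicates 1 and 4 to 6 were below every 0 h library. PUP3 (YER094C, chromosome V, 348729 to 349346), a beta subunit of the core, stood at 2164, 2283, 2196, 2013, 1999 and 2292 at 4 h against 2303 to 4881 (median 2916) at 0 h, with no overlap (-0.40, standard error 0.09, adjusted p = 0.000867). PRE10, an alpha subunit, did not overlap either (-0.41, standard error 0.08, adjusted p = 0.000352), and PUP1 (-0.42, standard error 0.08) and the catalytic PRE2 (-0.38, standard error 0.09) followed. RPN1 (-0.14), RPN2 (-0.11) and the transcription factor gene RPN4 (-0.13) were the 3 not called. GGTGGCAAA, the element bound by Rpn4, occurred at 79.4% of the proteasome promoters and 1.19% of all, and is shown in capitals for the 3 of the 4 named subunits that hold it:
PRE10: ccctctaaatcGGTGGCAAAaataagaaag
PUP3: atggcactgccGGTGGCAAAaaagtgcaaa
PRE2: aacagcaaaagGGTGGCAAAacgaagaata
These stretches lie at chrXV:1018856-1018885, minus strand (PRE10), chrV:349511-349540, minus strand (PUP3) and chrXVI:732183-732212, plus strand (PRE2), and end 110, 165 and 137 bases before the coding start.

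Ergosterol synthesis, which makes the main sterol of the yeast membrane, had 21 of 27 genes lower and 0 higher, with a median of -0.30. Its summed share was 0.699% to 0.859% (median 0.803%) at 0 h and 0.637%, 0.684%, 0.693%, 0.658%, 0.683% and 0.701% at 4 h, below every 0 h library in 5 of 6. ERG25 (YGR060W, chromosome VII, 610564 to 611493), the methyl oxidase, stood at 3903, 4679.6, 4920.1, 4018, 4574 and 4804 at 4 h against 5164 to 7776 (median 6363) at 0 h with no overlap (-0.54, standard error 0.07, adjusted p = 3.66e-07). ERG2 (-0.48, standard error 0.07) and ERG11 (-0.48, standard error 0.08), the target of azole drugs, and the activator UPC2 (-0.48, standard error 0.10) fell to a like degree, and ERG1 (-0.22) and ERG20 (-0.01) were not called. Among fatty acid and phospholipid genes 5 of 26 were lower and 3 higher, near the share of all genes (3 lower without 4 h replicate 2), with the desaturase OLE1 at -0.36 (standard error 0.14) and the activator INO2 at -0.62 (standard error 0.12). Of genes that answer oxygen, which partly overlap the sterol list, 8 of 21 were lower, with the cell wall gene TIR1 (YER011W, chromosome V, 175248 to 176012) at 640.0, 713, 753, 785, 1023 and 723 against 761 to 1955 (median 1437) at 0 h (-1.06, standard error 0.15, adjusted p = 3.44e-06) and the haem synthesis gene HEM13 at -0.85 (standard error 0.14), and 5 higher (3 without 4 h replicate 1), led by CYC7 and COX5B.

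**Figure D4:**
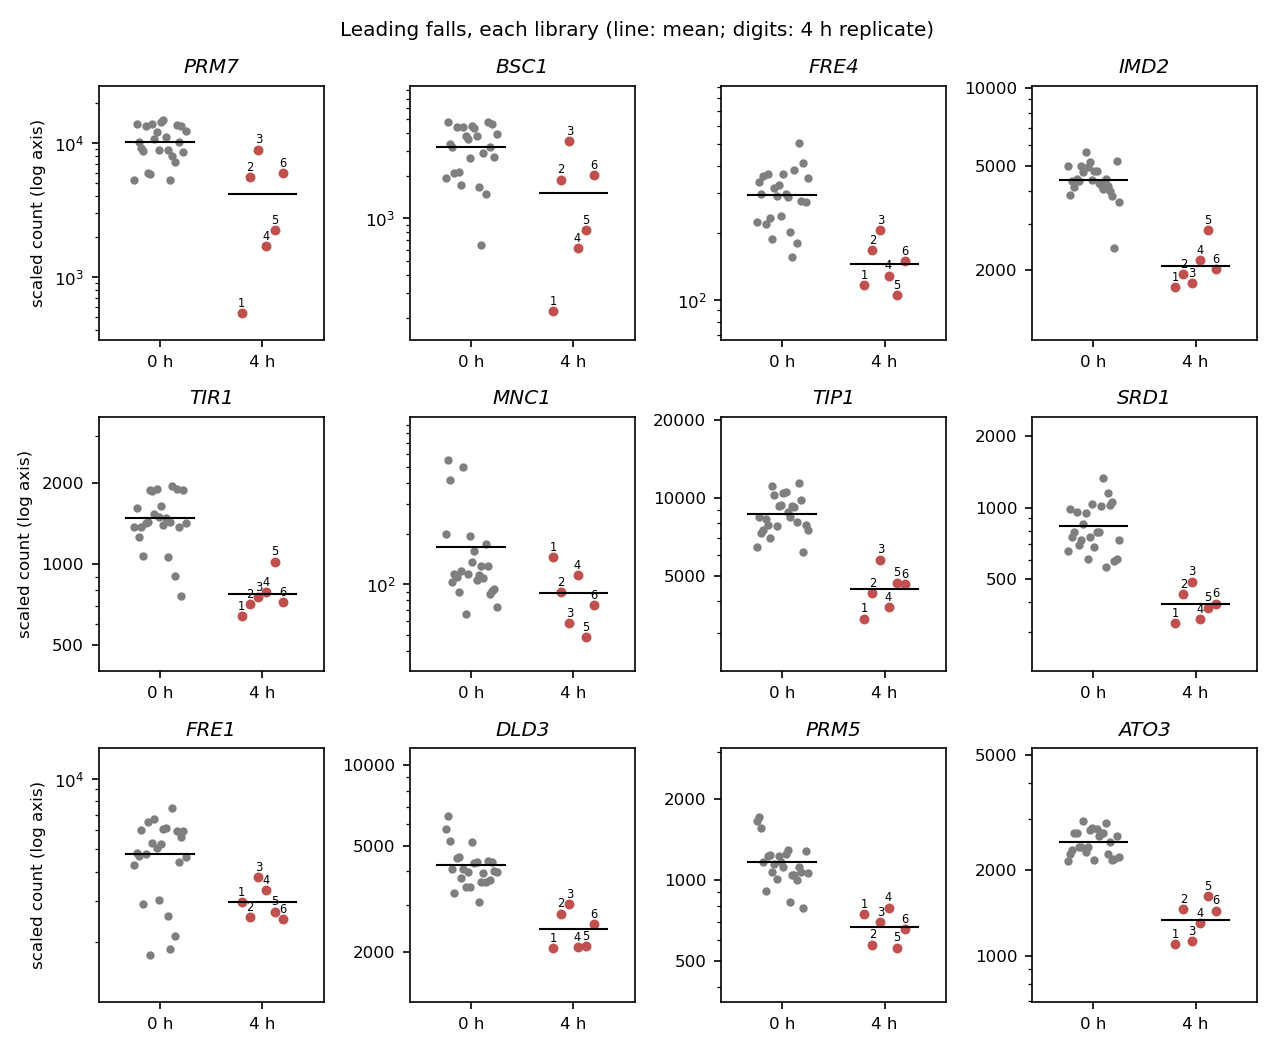
Scaled counts (log axis) of the 12 largest falls in each library at 0 h (grey, 24 libraries) and 4 h (red, 6 libraries numbered by replicate), with a line at each mean. They were the largest among called protein-coding genes with a symbol, at least 75 mean scaled counts, no intron and no ribosomal protein. TIP1, SRD1, DLD3 and ATO3 show no overlap, while PRM7 and BSC1 spread over more than 10-fold at 4 h, lowest in replicate 1 and highest in replicate 3.

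In the metal uptake lists the members called were lower. Iron and copper genes had 9 of 25 lower and 0 higher, with 16 not called. FRE4 (YNR060W, chromosome XIV, 739951 to 742110), a siderophore reductase, ranged from 156 to 505 (median 296) at 0 h and from 105 to 206 (median 139) at 4 h (-1.26, standard error 0.14, adjusted p = 5.17e-08), and FRE1 (YLR214W, chromosome XII, 568567 to 570627), the main surface reductase, ranged from 1764 to 7514 (median 4911) and then from 2501 to 3794 (median 2825), inside the wide 0 h range (-0.98, standard error 0.14, adjusted p = 2.25e-06). The siderophore transporter SIT1 (-0.78, standard error 0.12) and the low-affinity transporter FET4 (-0.68, standard error 0.10) fell, while FIT1 to FIT3, the cell wall siderophore proteins, and AFT1 (-0.09), the activator, were not called. Zinc genes had 5 of 8 lower and 0 higher, with the high-affinity transporter ZRT1 at -0.81 (standard error 0.16, adjusted p = 0.000135) and its activator gene ZAP1 not called (-0.03). Phosphate genes were 1 of 23 higher and 2 lower, below the share of all genes.

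Purine and one-carbon genes were mostly higher. Of 21 members, 14 were higher and 3 lower, with a median of 0.48 and 13 higher with the slope held. Their summed share was 0.774% to 1.31% (median 0.870%) at 0 h and 1.33%, 1.36%, 1.01%, 1.43%, 1.56% and 1.30% at 4 h, lowest in replicate 3. ADE17 (YMR120C, chromosome XIII, 507502 to 509280), which carries out the last steps to inosine monophosphate (IMP), ranged from 3538 to 15623 (median 4758) at 0 h and stood at 26384, 19659, 9688, 26491, 28988 and 18240.0 at 4 h, in all but replicate 3 above every 0 h library (1.81, standard error 0.22, adjusted p = 2.03e-07). GCV2 (YMR189W, chromosome XIII, 637500 to 640604), the glycine decarboxylase, did not overlap, ranging from 502 to 1687 (median 756) and then from 1699 to 3399.9 (median 2949) (1.51, standard error 0.14, adjusted p = 3.04e-09), and SHM2 (1.07, standard error 0.16) and GCV1 (1.06, standard error 0.17) of one-carbon supply followed. The 3 lower members lie past IMP on the branch to guanine nucleotides, IMD4 (-0.52, standard error 0.11), IMD3 (-0.37, standard error 0.08) and GUA1 (-0.28, standard error 0.09). IMD2 (YHR216W, chromosome VIII, 554396 to 555967), an IMP dehydrogenase gene outside the list and among the 12 largest falls, ranged from 2423 to 5634 (median 4400.1) at 0 h and stood at 1709.7, 1915, 1771, 2173, 2841 and 2014 at 4 h (-1.17, standard error 0.13, adjusted p = 7.52e-08). The branch to adenine nucleotides held ADE13 (0.85, standard error 0.15) and ADE12 (0.47, standard error 0.07), both higher. TGACTC, the letters bound by Bas1 and Gcn4, occurred at 57.1% of the list's promoters, 50.8% of amino acid biosynthesis promoters and 7.98% of all, and is shown for 2 of the 4 largest rises, all of which hold it:
ADE17: ccagaaatgaatTGACTCctctcataactt
GCV1: gctcaggagcccTGACTCgtgttgcctcga
They lie at chrXIII:509440-509469, minus strand (ADE17) and chrIV:485491-485520, minus strand (GCV1). Nucleobase salvage and uptake had 8 of 17 lower and 1 higher, among them the purine and cytosine permease paralogs FCY21 (-0.74, standard error 0.10) and FCY22 (-0.87, standard error 0.17) and the uracil salvage enzyme FUR1 (-0.62, standard error 0.09).

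Amino acid biosynthesis genes were called in both directions. Of 63 genes, 14 were higher and 15 lower, near the shares of all genes. The higher count fell to 9 without 4 h replicate 5 and to 7 with the slope held or without the set term, and the lower count to 8 without 4 h replicate 1. Among the higher genes, the histidine gene HIS4 stood at 22098, 16546, 9899, 19022, 24235 and 12145 at 4 h against 4568 to 15605 (median 6996) at 0 h (0.96, standard error 0.20, adjusted p = 0.000476), and the arginine gene ARG1 (0.86, standard error 0.20) and the aromatic transaminase gene ARO9 (1.15, standard error 0.18) rose as well. Replicate 5 was the highest for HIS4 and ARG1. None of the lower genes fell by more than 0.46 on the log2 scale. Sulfur and methionine genes had 10 of 32 lower and 4 higher (1 without 4 h replicate 1). The permease MMP1 (-0.85, standard error 0.13, adjusted p = 6.03e-06), SAH1 (-0.57, standard error 0.09), SAM2 (-0.53, standard error 0.10) and CYS3 (-0.50, standard error 0.09) led the falls, enzymes or transport of the cycle around S-adenosylmethionine and of cysteine synthesis, and the assimilation genes MET3 (-0.06) and MET17 (0.08) were not called. Amino acid permeases had 7 of 20 lower (3 without the set term), among them TAT1 (-0.40), DIP5 (-0.43) and MUP1 (-0.45), and 3 higher, with AGP2 at 0.84 (standard error 0.14). Genes under nitrogen catabolite repression were 10 of 27 higher and 2 lower (5 higher without 4 h replicate 1), and the allantoin genes DAL1 to DAL5 stayed uncalled. Of 18 genes of NAD and biotin synthesis, 6 were higher (3 without the set term) and 4 lower. The biotin synthase gene BIO2 fell (-0.92, standard error 0.14, adjusted p = 8.76e-06) and BNA2, the first step from tryptophan to NAD, rose with no overlap (1.05, standard error 0.16, adjusted p = 6.49e-06).

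Cell surface genes were 15 of 41 higher and 3 lower. YGP1 (YNL160W), a secreted glycoprotein, ranged from 1267 to 3833 (median 1998) at 0 h and from 4082 to 10966 (median 5770.1) at 4 h without overlap (1.36, standard error 0.18, adjusted p = 7.65e-07), and so did GSC2, the glucan synthase used outside vegetative growth (0.95, standard error 0.10, adjusted p = 5.24e-08), and the abundant wall protein SED1 (0.52, standard error 0.10, adjusted p = 0.000183). TIP1 (YBR067C, chromosome II, 372103 to 372735), a mannoprotein, ranged from 6191 to 11390.3 (median 8421) at 0 h and stood at 3412, 4278, 5760.0, 3774, 4694 and 4636 at 4 h, below every 0 h library (-0.99, standard error 0.12, adjusted p = 1.54e-07), and UTR2, a transglycosidase, fell by 0.90 on the log2 scale with 5 of 6 libraries below. Of drug transporters and their regulators 4 of 18 were higher (2 without 4 h replicate 5) and 2 lower (0 without 4 h replicate 1), shares near or below those of all genes, with PDR15 (1.36, standard error 0.16, adjusted p = 1.64e-07) and RSB1 (1.44, standard error 0.19, adjusted p = 6.98e-07) free of overlap and PDR5 not called (0.07). In the peptide and polyamine list 2 of 8 were higher and 3 lower. The exporter TPO4 rose by 1.5 (standard error 0.33) and the transporter OPT2 by 1.56 (standard error 0.20), and TPO1 (-0.45), TPO5 (-0.21) and OPT1 (-0.31) fell.

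In the cell cycle and mating lists, several shares lay near those of all genes, 20.4% higher and 18.6% lower. Those were the lower shares of DNA replication and mating and the higher share of histones. Cyclins and regulators of the G1 phase were 9 of 24 higher and 1 lower, with the mitotic cyclin CLB1 above every 0 h library in 6 of 6 (0.72, standard error 0.10, adjusted p = 1.07e-06), PCL2 (0.58, standard error 0.12) and SWI4 (0.51, standard error 0.11), but CLN3 (-0.01) and CLB2 (-0.14) were not called. DNA replication had 11 of 37 higher and 6 lower (7 and 3 without 4 h replicate 1), with the polymerases POL2 (0.64, standard error 0.09) and POL1 (0.61, standard error 0.07) against the clamp loader RFC4 (-0.59, standard error 0.08), and 2 of 11 histone genes were higher and 9 not called. Of the histones 7 were higher with the slope held and 10 with the slope in place of the set term. In the mating list 10 of 36 were higher and 7 lower. PRM6 (1.11, standard error 0.25) and PRM2 (0.99, standard error 0.25) rose from low levels, while PRM7 (YDL039C, chromosome IV, 381985 to 384081) had the largest fall among the named genes. It ranged from 5238 to 14752 (median 10228) at 0 h and stood at 537, 5579.9, 8894, 1702, 2222 and 5949 at 4 h (-1.5, standard error 0.32, adjusted p = 0.000423), lowest in replicate 1 and highest in replicate 3. BSC1 (YDL037C, chromosome IV, 384601 to 385587), the next gene on the same strand, stood at 220.6, 1879, 3494, 614, 825 and 2025 (-1.37, standard error 0.32, adjusted p = 0.0012). PRM5 (YIL117C, chromosome IX, 140613 to 141569), a membrane protein induced by pheromone and by cell wall stress, changed by -0.93 (standard error 0.11, adjusted p = 2.19e-07).

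The remaining leading falls belonged to no list above. SRD1 (YCR018C, chromosome III, 148238 to 148903), linked to pre-rRNA processing, ranged from 564 to 1335 (median 789) at 0 h and from 327 to 488 (median 386) at 4 h (-0.99, standard error 0.12, adjusted p = 1.67e-07). DLD3 (YEL071W, chromosome V, 16355 to 17845), a cytosolic enzyme of the lactate dehydrogenase family, stood at 2068, 2779, 3010.2, 2076, 2102 and 2531 against 3064 to 6443 (median 4040.4) (-0.95, standard error 0.09, adjusted p = 6.52e-09), and ATO3 (YDR384C, chromosome IV, 1241204 to 1242031), a putative ammonium exporter, at 1103, 1454, 1129, 1298, 1615 and 1438 against 2143 to 2944 (median 2445) (-0.92, standard error 0.10, adjusted p = 2.29e-08). Neither overlapped between groups. MNC1 (YBR056W-A, chromosome II, 351255 to 351455) was the weakest of the 12, with 66.8 to 555 (median 115) at 0 h and 48.2 to 145 (median 82.5) at 4 h (-1.04, standard error 0.39, adjusted p = 0.0362). Among genes chosen after their values were seen, GAD1, the glutamate decarboxylase, rose by 2.23 (standard error 0.29), the ester synthesis genes ATF1 and ATF2 fell (-0.66 (standard error 0.10) and -0.79 (standard error 0.09)) while EEB1 of the same function rose (0.94, standard error 0.08), and the cell integrity kinase gene SLT2 fell (-0.69, standard error 0.12). Of 11 RNA exosome genes 10 were lower, between -0.18 and -0.49.

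The libraries at 4 h differed from each other along the same functions. Among the 143 genes that rose at least 2-fold, replicate 1 was the highest of the 6 libraries for 117 and replicate 3 the lowest for 72. For ribosome biogenesis factors the order was turned round, with replicate 1 the lowest for 118 of 140 and replicate 3 the highest for most. Hexose uptake departed from this, with its largest share in replicate 3. HXT4 and HXT2 were highest there, and HXT1 was closest to its 0 h median there, at 20026 scaled counts. Leaving out replicate 1 reduced the calls to 914 higher and 796 lower, and leaving out replicate 3 raised them to 1303 and 1244.

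**Figure D5:**
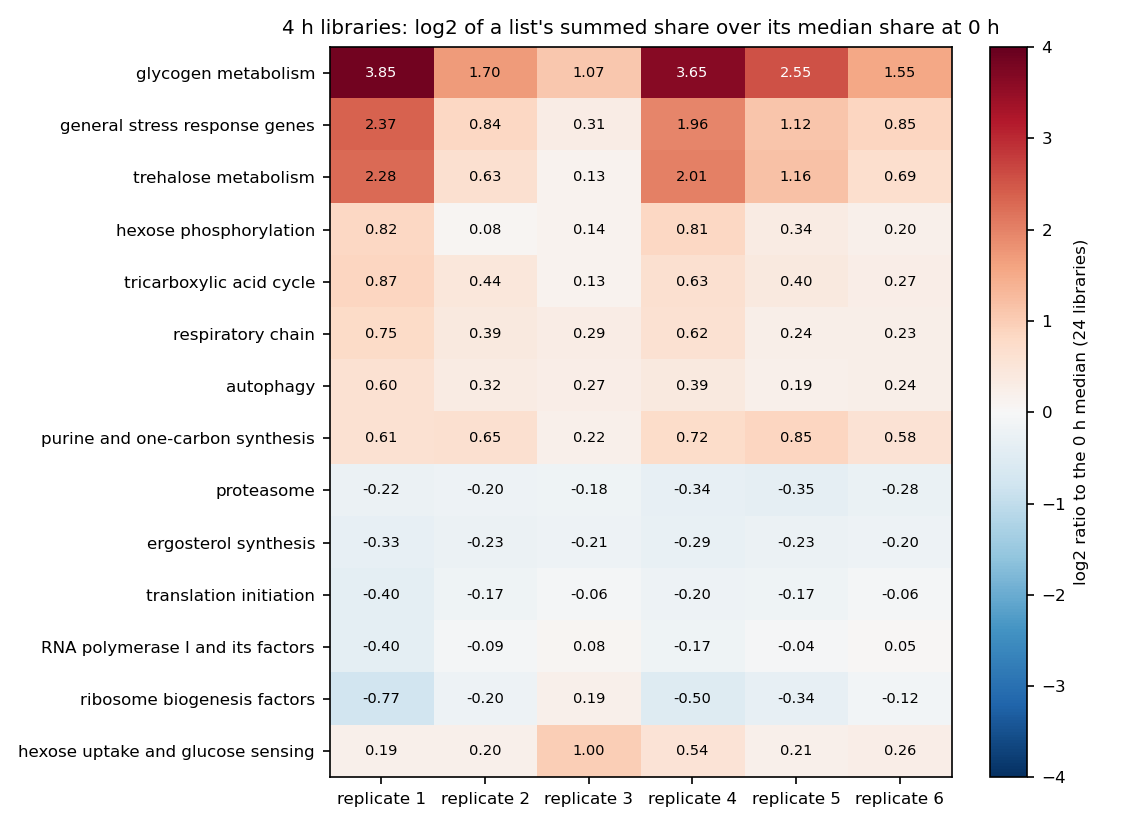
Log2 ratio of the summed share of each list in every library at 4 h to the median of its share in the 24 libraries at 0 h (red above 0, blue below). Replicate 1 reaches 3.85 for glycogen genes and -0.77 for ribosome biogenesis factors, against 1.07 and 0.19 in replicate 3.

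Set in the course, 4 h differed from both 2 h and 6 h. Between 2 h and 4 h, 485 genes (8.05%) were higher and 282 (4.68%) lower, and between 4 h and 6 h 220 (3.65%) and 187 (3.1%). Of the 1224 genes higher at 4 h than at 0 h, 465 were also higher than at 2 h. Of the 1116 lower genes, 262 were also lower than at 2 h. Both comparisons use the same libraries at 4 h, so these counts are not independent support. The comparison with 6 h shares those libraries too. From 2 h to 4 h, 44 of 140 ribosome biogenesis factors and 9 of 27 ergosterol genes were called lower. For translation initiation it was 1 of 28 and for the proteasome 0 of 34. The mean proteasome share of counts was 0.951% at 0 h, 0.872% at 2 h and 0.796% at 4 h. By 6 h, 156 of the higher genes rose further and 0 fell back, and 125 of the lower genes fell further and 2 rose. The respiratory chain was among the lists still rising, with 13 of 23 members higher at 6 h than at 4 h, and HSP12 (2.23, adjusted p = 8.32e-06) and HXT7 (2.53, adjusted p = 5e-05) rose on. HXT1 changed by -2.47 from 4 h to 6 h. Trehalose genes had 0 of 10 and glycogen genes 2 of 10 members higher at 6 h than at 4 h, and TSL1 changed by 0.00 (adjusted p = 0.998). Ribosome biogenesis factors likewise had 0 members called in either direction between 4 h and 6 h, against 54 of 138 cytosolic ribosomal protein genes and 11 of 34 proteasome genes that were lower at 6 h. A p that misses the threshold does not show that the levels were equal.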

How the data were processed

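PolyA RNA libraries (42) were read as the gene and exon counts the authors deposited, whole-number counts of reads per gene made, per the file headers, with featureCounts v2.0.3 in paired, reverse-stranded mode on the R64 annotation, release 106, from alignments with duplicates marked. Reads with several alignments or overlapping several genes were not counted in that mode. The labels' processing notes name STAR, StringTie and featureCounts. Groups came from the titles. The ComBat-seq adjustment in the study's methods is not recorded in the headers and was run as an alternative.

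Genes with a mean of at least 10 scaled counts over the 30 libraries were fitted with edgeR 4.0.16 (R 4.3.3; TMM; quasi-likelihood test) with time and the flat or steep set as terms, and called at a Benjamini-Hochberg adjusted p under 0.05. Sets were divided at the largest gap (0.188) between sorted slopes over 4481 intronless genes with at least 75 counts in every library. The contrasts with 2 and 6 h came from 1 fit of all 42 libraries. The number of counts per library set the precision of low genes.

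Named genes were the 12 largest rises and falls among called protein-coding genes with at least 75 mean scaled counts, a symbol, no intron and no ribosomal protein, up to 4 called members of largest change per list, and the markers, of which 2 list members are not reported here. The members and lists were chosen with earlier results of these data known. No test was run over a list. On data simulated from the fitted model, 200 of 6003 genes were changed. The test recovered 84% of those changed by 1.5-fold and 96% of those changed by 2-fold, with 3 false calls among the others. Counts were drawn independently in each library, so shared cultures or a remaining length slope were not covered. No replicates were duplicates, as the smallest chi-square per degree of freedom over 291 pairs within a group was 10.2. Motifs were counted on both strands, overlapping matches included, in 300 bases at 5988 coding starts of the R64 genome. Of 6047 genes compared, 6038 had the same start and end in both annotations. DESeq2 1.42.0, ComBat-seq (sva 3.50.0), other scalings, filters, sets of 0 h libraries and leaving out each library were alternatives, and those with other libraries tested the same 6003 genes. That last choice, in place of filtering again on the libraries left, was made after seeing the data.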

Additional observations from a re-analysis of the deposited data

Results flagged for a closer look

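In 5 of 80 values checked over the 6 libraries at 4 h, 1 library stood apart from the others by Dixon's test, which picks out about 1 in 20 such groups by chance. HSP12 was at 695 scaled counts in replicate 1 against 347 in the next highest. Oxidative defence genes took 0.633% of counts in replicate 1 against 0.562% in the next. Replicate 3 stood apart in the other three: it was the highest for hexose uptake and glucose sensing genes, with 1.41% against 1.03%, and for amino acid permeases, with 0.565% against 0.472%, and the lowest for the vacuolar ATPase, with 0.595% against 0.666%.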

How the results depend on the processing

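Against the 1224 higher and 1116 lower genes reported, the counts were within 1.5-fold under every other scaling, filter, counting or covariate tried, with these exceptions. The 6 libraries at 0 h named 30 °C gave 488 higher and 356 lower genes, and the same libraries with a replicate block by the numbers in those names gave 652 and 587. Steep libraries with the slope as a covariate gave 729 lower genes, and 855 higher ones. The labels' replicate numbers gave no clear sign of pairing: the correlations of same-numbered deviations ran from -0.30 to 0.51, and 2 of 6 libraries correlated best with their own number. Deviations were from group means, with the flat or steep set not removed, and so few libraries cannot exclude pairing. For the numbers in the alignment names the correlations ran from 0.082 to 0.56, 1 of them under 0.1, and 4 of 6 libraries correlated best with their own, a hint from the data and not the design. With a replicate block on the labels' numbers, 402 genes were higher and 365 lower, and the same 12 libraries with no block gave 627 and 529. The last of these and the fit of steep libraries with the slope were chosen after seeing the data.

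Leaving out 1 library at 4 h gave 914 to 1303 higher and 796 to 1244 lower genes, and leaving out 1 at 0 h gave 1175 to 1280 and 1037 to 1188. In all 30 such fits, 838 of the higher and 724 of the lower genes were called. Of the 263 named genes that were called, 107 were called in the same direction under every alternative. HHO1 turned to -0.069 and RSM19 to -0.031 without the set term, and SRP21 to 0.033 with the slope held. The causes were not tested.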

Other observations

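Lists outside the comparisons above are given beside the shares among all genes, 20.4% higher and 18.6% lower. Genes of the secretory pathway and of protein folding in the endoplasmic reticulum were 13 of 34 lower and 1 higher, 8 lower without 4 h replicate 1 and 6 with the slope held, and SEC65, a subunit of the signal recognition particle, changed by -0.34 (standard error 0.07, adjusted p = 0.000277) in edgeR's test. Thiamine and pyridoxine synthesis had 5 of 18 tested genes higher and 1 lower, but 2 higher without 4 h replicate 5. Pyrimidine synthesis had 1 of 8 higher and 2 lower, near the shares of all genes.

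Other genes and complexes were picked after their values were seen and are given as values. RGI1, known for a part in energy metabolism under respiratory growth, ranged from 102 to 459 (median 206) scaled counts at 0 h and stood at 2574, 513, 211, 2123, 1002 and 352 at 4 h (2.42), and RTC3 ranged from 37.6 to 303 (median 112) and stood at 1492, 341.2, 163, 989.5, 469 and 371 (2.42). The vacuolar mannosidase AMS1 changed by 1.53 and the sporulation glucoamylase SGA1 by 1.77, again with replicate 1 the highest. Among small complexes, 6 of 10 RNA polymerase II subunit genes were lower, with the largest subunit gene RPO21 not called (0.03), and 2 of 6 prefoldin genes were lower. WSC4 (1.40) and MTL1 (0.81), sensors of cell wall stress, were higher while WSC3 (-0.53) was lower. Of 9 genes that store and release triacylglycerol, 5 were higher and 1, ARE1 (-0.32), lower, with TGL4 higher by 0.41 and TGL3 by 0.27.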
